A study of Homo sapiens with 6 samples.

Results

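The genes described here are 37 human enzymes and transporters that make, recycle and break down pyrimidine nucleotides, supply deoxynucleotides (dNTPs) for DNA, and carry single carbon units on folate and through the methionine cycle. They were picked by gene symbol from a count table of 58735 genes, and all 37 were found in it. The libraries came from HuCCT1, an established human cholangiocarcinoma (bile duct cancer) cell line labelled HUCCT1 with bile duct as its tissue. A group of 3 libraries, labelled siC1QBP, had a small interfering RNA against C1QBP, whose product sits chiefly in the matrix of mitochondria; the other group of 3 had siNC as its treatment and was labelled wt. The time of harvest, the siRNA sequences and the number of separate cultures are not stated in the labels.

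Cells build the pyrimidine UMP de novo through CAD, DHODH and UMPS, turn it into CTP, and also recover uridine, thymidine and deoxycytidine from outside through salvage kinases. Ribonucleotide reductase converts ribonucleotides to the deoxy form, and thymidylate synthase uses a folate-borne carbon to make dTMP, which thymidylate kinase takes towards dTTP. Several of these genes, TK1 and the reductase subunit RRM2 among them, are known for peaking in S phase, when DNA is copied, and the pathway is a target of drugs used in bile duct cancer such as gemcitabine and fluorouracil.

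C1QBP itself had 59.1, 57.6 and 60.0 CPM (counts scaled to a common library size, with TMM factors) in the siC1QBP libraries, against 175, 181 and 185 CPM in the siNC libraries, which is 32.7% of the siNC level (95% interval 30.4% to 35.1%). Total counts per library were 17122252 to 18847340 in siC1QBP and 18313264 to 20416243 in siNC. Replicate 1 stood apart in each group: the chi-square statistic per degree of freedom over genes was 6.66 and 6.77 between siC1QBP replicate 1 and its partners, against 2.09 between those partners, and 3.67 and 3.40 for siNC replicate 1, against 2.13. Mitochondrially encoded genes took 4.20% to 4.80% of counts in siC1QBP and 3.66% to 3.88% in siNC, and 25001 to 25506 genes had a count in siC1QBP against 23395 to 23841 in siNC. All 7 epithelial and bile duct marker genes were detected, with summed levels of 7744 to 8117 CPM in siC1QBP and 8553 to 9044 CPM in siNC. Most of the sum was KRT7, KRT19 and KRT8, with log2 fold changes (siC1QBP over siNC) of -0.26, -0.19 and -0.14. EPCAM was at -0.04, whereas KRT18, SOX9 and CDH1 were at 0.09, 0.14 and 0.14. Hepatocyte markers summed to 0.111 to 0.173 CPM in siC1QBP and at most 0.0545 CPM in siNC, with TTR and TF at 0 throughout. The 4 leukocyte markers summed to 6.00 to 6.67 CPM in siC1QBP and 5.82 to 6.97 CPM in siNC, nearly all of it CD14 (5.83 to 6.51 CPM in siC1QBP and 5.76 to 6.81 CPM in siNC), with CD3E at 0 throughout. The 4 fibroblast markers summed to 9.45 to 12.8 CPM in siC1QBP and 8.22 to 10.6 CPM in siNC, most of it LUM (8.39 to 11.3 CPM in siC1QBP and 6.70 to 8.83 CPM in siNC). The 4 endothelial markers summed to 3.05 to 3.95 CPM in siC1QBP and 2.52 to 3.70 CPM in siNC, and no marker of that list was at 0 throughout. The part that these differences between the groups have in the results below was not tested. In bulk samples, fewer cells of a kind (cells in S phase, for example) and less RNA per cell cannot be told apart.

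In siC1QBP cells, 7 of the 36 members that could be tested fell and 0 rose (edgeR quasi-likelihood test, Benjamini-Hochberg adjusted p under 0.05 over all 15530 genes tested). The members that fell were the nucleoside diphosphate kinases NME1 and NME2, the salvage kinases TK1, DCK and UCK2, the thymidylate kinase DTYMK, and the cytosolic serine hydroxymethyltransferase SHMT1. They fell by 0.16 to 0.44 on the log2 scale, so all were changes of modest size. The share of members called lower was 19.4%, against 7.84% of all genes tested; 6.47% of all genes were called higher and 14.3% were called either way. In the main fit the split among all genes was 1217 lower and 1005 higher. It turned to 908 lower and 1253 higher when only the library size was used for scaling, and 3 members were then called lower. Another measure gave 14 members with every siC1QBP library below every siNC library (38.9%, against 16.6% of all genes), 1 with every siC1QBP library above (2.78%, against 16.0%) and 21 with overlapping groups. The median log2 fold change of the 36 members was -0.10, with 31 below 0 and a range of -0.46 to 0.32, against a median of 0.00255 over all genes tested. At an unadjusted p under 0.05, 1 member was higher (ALDH1L2), and DESeq2 also called 0 higher.

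The count of members called lower depended on single libraries, as did that of all genes (1217 lower in the main fit). It was 3 without siC1QBP replicate 2 (959 of all genes lower) and 4 without siC1QBP replicate 3 (993). Without siNC replicate 2 it was 4 (581), and without siNC replicate 3 it was 3 (618). With replicate 1 of both groups left out, a setting chosen after seeing the data, 13 members were lower and 1 was higher. Of all genes, 1912 were then lower and 1375 higher. TK1, DTYMK and NME1 were called lower in each of the 16 alternative fits run.

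**Figure D1:**
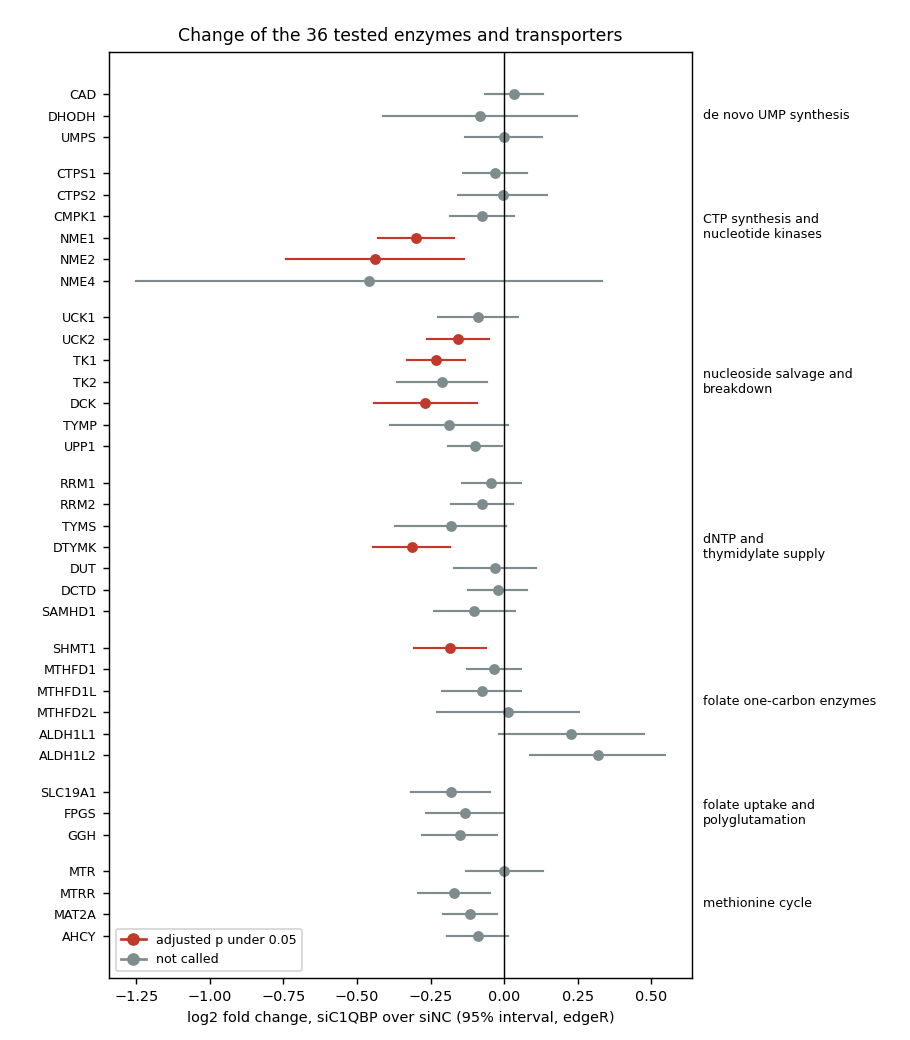
Log2 fold change (siC1QBP over siNC) of the 36 tested members, grouped by role, with the 95% interval of each as a line; red marks an adjusted p under 0.05. The 7 red members all lie below 0, between -0.44 and -0.16, and the 3 de novo enzymes at the top lie close to 0.

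The salvage genes had 3 of 7 members lower (42.9%, against 7.84% of all genes), with a median log2 fold change of -0.19 and all 7 below 0. The role groups are small, so 1 call moves such a share widely. TK1, the cytosolic thymidine kinase that phosphorylates thymidine to dTMP (chromosome 17, 78174075 to 78187233, minus strand, hg38), had 201, 218 and 206 CPM in siC1QBP, against 234, 246 and 255 CPM in siNC. The highest siC1QBP library lay below the lowest siNC library. Its log2 fold change came to -0.23 with an SE of 0.05 (adjusted p = 0.00338 by edgeR, lower in 3 of 3 libraries), which leaves 85.1% of the siNC level (95% interval 79.5% to 91.2%). TK1 was also the member with the highest level per length, at 112 FPKM in siC1QBP and 131 FPKM in siNC.

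DCK, the kinase that phosphorylates deoxycytidine and also activates gemcitabine (chromosome 4, 70992538 to 71030914, plus strand), had 30.6, 28.1 and 28.5 CPM in siC1QBP, against 38.9, 30.8 and 35.5 CPM in siNC. The groups were separated by a narrow gap only, since siNC replicate 2 came close to siC1QBP replicate 1. DCK fell by 0.27 on the log2 scale (SE 0.08, adjusted p = 0.0390 by edgeR). Leaving out siC1QBP replicate 2, siC1QBP replicate 3, siNC replicate 1 or siNC replicate 3 ended the call, with adjusted p of 0.0984 to 0.154, and it was made in 7 of 16 alternative fits.

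UCK2, a uridine-cytidine kinase that makes UMP and CMP from the nucleosides (chromosome 1, 165827531 to 165911618, plus strand), had 75.3, 76.6 and 77.5 CPM in siC1QBP, against 83.6, 86.3 and 85.9 CPM in siNC. The 3 libraries of each group lay close together, and the groups did not overlap. UCK2 fell by 0.16 on the log2 scale (SE 0.05, adjusted p = 0.0425 by edgeR), and leaving out replicate 2 or replicate 3 of either group ended the call (adjusted p 0.0845 to 0.144). Its paralog UCK1 had a log2 fold change of -0.09 and was not called. Per library, the ratio of UCK2 to UCK1 in FPKM was 0.794 ± 0.010 in siC1QBP and 0.833 ± 0.020 in siNC (SD, n = 3 each), without overlap (exact two-sided permutation test, p = 0.1, the smallest that 3 against 3 allows, and 0.7 adjusted over 7 ratios).

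TK2, the mitochondrial thymidine kinase, missed the threshold with 26.2, 25.9 and 25.0 CPM in siC1QBP, against 28.9, 31.5 and 28.9 CPM in siNC. Its log2 fold change came to -0.21 (adjusted p = 0.0611 by edgeR), close to that of TK1, and the groups did not overlap. The ratio of TK1 to TK2 in FPKM was 31.2 ± 1.5 in siC1QBP and 31.7 ± 2.0 in siNC (SD, n = 3 each, overlapping). Of the phosphorylases that split nucleosides, UPP1, which releases uracil from uridine, had 238 to 251 CPM in siC1QBP and 252 to 267 CPM in siNC, and TYMP, which splits thymidine, had 17.4 to 18.3 CPM in siC1QBP and 17.8 to 22.8 CPM in siNC. Neither was called, and the UPP1 groups nearly met, since the highest siC1QBP library had 251 CPM and the lowest siNC library 252 CPM. Without siC1QBP replicate 1, UPP1 was called lower (edgeR adjusted p = 0.0245).

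**Figure D2:**
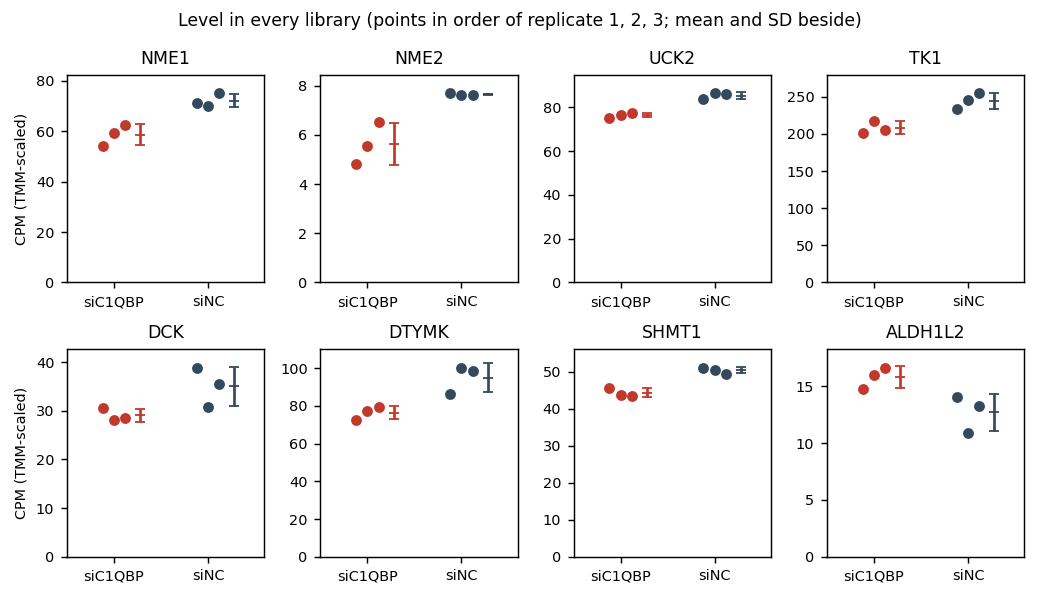
CPM in every library for the 7 members called lower and for ALDH1L2, with siC1QBP (red) left of siNC (dark); points follow replicate number and the bar beside them is the mean with SD (n = 3). In each of the 7 called genes the 3 siC1QBP points lie below the 3 siNC points, and in ALDH1L2 they lie above them.

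Among the 7 genes of dNTP and thymidylate supply, 1 fell (14.3%, against 7.84% of all genes called lower), and the median log2 fold change was -0.08. DTYMK, which adds the next phosphate to dTMP and so stands on both the salvage and the de novo route to dTTP (chromosome 2, 241675742 to 241686991, minus strand), had 72.4, 77.5 and 79.4 CPM in siC1QBP, against 86.4, 100.3 and 98.5 CPM in siNC. Each siC1QBP library was below each siNC library, and siNC replicate 1 was the lowest of its group. DTYMK fell by 0.31 on the log2 scale (SE 0.06, adjusted p = 0.00256 by edgeR), or 80.4% of the siNC level (95% interval 73.5% to 88.0%).

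The other genes of dNTP supply were not called. The reductase subunits RRM1 and RRM2 had log2 fold changes of -0.04 (95% interval -0.14 to 0.06) and -0.08 (-0.18 to 0.03), with overlapping groups. Thymidylate synthase TYMS had 18.8, 21.5 and 20.4 CPM in siC1QBP, against 23.4, 24.9 and 20.5 CPM in siNC, which put it at -0.18 on the log2 scale (adjusted p = 0.191 by edgeR, 95% interval -0.37 to 0.01). The siC1QBP and siNC groups of TYMS overlapped, with siNC replicate 3 inside the siC1QBP range, and 39.1% of its exon bases lie opposite exons of ENOSF1. The dUTP-removing enzyme DUT was at -0.03, the dCMP deaminase DCTD at -0.02, and SAMHD1, which breaks down dNTPs, at -0.10. The 95% intervals of RRM1, RRM2, DUT, DCTD and SAMHD1 all lay above -0.31, the estimate for DTYMK. That estimate has its own interval (-0.44 to -0.18), which overlapped that of SAMHD1 (-0.24 to 0.04) and came close to that of RRM2. Differences between these genes were not tested. Without siC1QBP replicate 1, SAMHD1 was called lower (edgeR adjusted p = 0.0311).

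Of 6 tested genes of CTP synthesis and the nucleotide kinases 2 fell (33.3%, against 7.84% of all genes). Their median of -0.19 lay in a gap between members. CTPS1, CTPS2 and CMPK1 were at -0.08 to -0.01, and NME1, NME2 and NME4 at -0.46 to -0.30. NME1, a nucleoside diphosphate kinase that passes the last phosphate to nucleoside diphosphates (chromosome 17, 51153536 to 51162428, plus strand), had 54.0, 59.4 and 62.4 CPM in siC1QBP, against 71.2, 70.1 and 74.9 CPM in siNC. The groups lay well apart. NME1 fell by 0.30 on the log2 scale (SE 0.06, adjusted p = 0.00353 by edgeR), or 81.3% of the siNC level (95% interval 74.3% to 88.9%).

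NME2, its neighbour and near copy (chromosome 17, 51165435 to 51171747, plus strand), had 4.84, 5.54 and 6.51 CPM in siC1QBP, against 7.68, 7.64 and 7.62 CPM in siNC. The siNC libraries were nearly equal while the siC1QBP libraries spread widely. NME2 fell by 0.44 on the log2 scale (SE 0.14, adjusted p = 0.0491 by edgeR), and the call was lost when any library other than siC1QBP replicate 3 was left out (adjusted p 0.0899 to 0.128). Both genes are uncertain as separate values: a readthrough gene, NME1-NME2, shares 638 exon bases with NME1 and 603 with NME2, and it was given 0, 1 and 2 counts in siC1QBP and 7, 1 and 6 counts in siNC. The ratio of NME1 to NME2 in FPKM was 8.03 ± 0.63 in siC1QBP and 7.22 ± 0.27 in siNC (SD, n = 3 each, overlapping). The mitochondrial NME4 stood near the floor of detection, averaging 0.705 ± 0.239 CPM across siC1QBP libraries and 0.963 ± 0.162 CPM across siNC libraries (SD, n = 3 each), with a log2 interval of -1.25 to 0.33 that leaves its direction unresolved.

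The CTP synthases CTPS1 and CTPS2, at -0.03 and -0.01, and the UMP-CMP kinase CMPK1, at -0.08, were not called. Mitochondrial CMPK2 had 7, 2 and 2 counts in siC1QBP and 4, 5 and 0 counts in siNC and was removed by the low-count filter. In the library without a count, 3 counts would correspond to 0.161 CPM, a limit that covers counting error only.

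The 3 genes of de novo UMP synthesis had 0 calls, and their median log2 fold change was -0.00224. Among all genes 14.3% were called either way, so few calls would come from 3 genes at that share. CAD, which carries out the opening steps of the pathway, had 125, 120 and 119 CPM in siC1QBP, against 119, 120 and 117 CPM in siNC. The groups overlapped, and CAD stood at 0.03 on the log2 scale (SE 0.05, 95% interval -0.06 to 0.13, adjusted p = 0.687 by edgeR). UMPS, which makes UMP from orotate, had 55.3, 62.4 and 62.4 CPM in siC1QBP, against 59.7, 57.7 and 63.1 CPM in siNC, with a 95% interval of -0.13 to 0.13. DHODH, the mitochondrial enzyme that feeds electrons to ubiquinone, was faint, with 4.84, 6.63 and 6.93 CPM in siC1QBP, against 6.70, 6.75 and 6.05 CPM in siNC, so its interval was wider (-0.41 to 0.25).

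**Figure D3:**
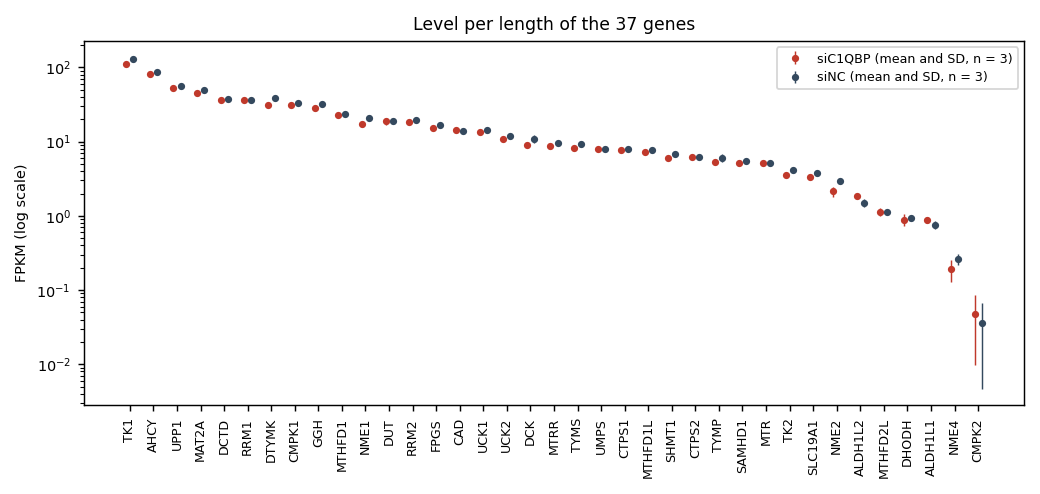
Level per length (FPKM, log scale) of the 37 genes in order of their mean over the 6 libraries, with siC1QBP (red, left of each pair) and siNC (dark) as mean and SD (n = 3). TK1 is highest at 112 FPKM in siC1QBP and 131 FPKM in siNC, and NME4 and CMPK2 are lowest.

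The promoters of TK1, DTYMK, NME1 and DCK are shown, the first 3 because their calls held in all alternative fits and DCK because it was the 1 called member with both an E-box and an E2F word. Sequences are from RefSeq (GRCh38.p14), from 250 bases before to 50 bases after an annotated start, at chr17:78187003-78187302 (minus strand, TK1), chr2:241686766-241687065 (minus, DTYMK), chr17:51153309-51153608 (plus, NME1) and chr4:70993399-70993698 (plus, DCK). Capitals mark the words searched on both strands, which were CACGTG (E-box), the E2F words TTTCCCGC, TTTCGCGC, TTTGCCGC and TTTGGCGC, the cell cycle homology word TTTGAA, the amino acid response word TGATGNAA, and CCAAT.
TK1: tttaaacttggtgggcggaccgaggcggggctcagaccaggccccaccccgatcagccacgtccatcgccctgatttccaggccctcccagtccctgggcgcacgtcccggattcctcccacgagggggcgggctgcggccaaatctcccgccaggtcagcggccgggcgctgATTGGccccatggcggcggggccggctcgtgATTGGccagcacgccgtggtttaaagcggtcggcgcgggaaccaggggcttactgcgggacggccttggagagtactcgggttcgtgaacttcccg
DTYMK: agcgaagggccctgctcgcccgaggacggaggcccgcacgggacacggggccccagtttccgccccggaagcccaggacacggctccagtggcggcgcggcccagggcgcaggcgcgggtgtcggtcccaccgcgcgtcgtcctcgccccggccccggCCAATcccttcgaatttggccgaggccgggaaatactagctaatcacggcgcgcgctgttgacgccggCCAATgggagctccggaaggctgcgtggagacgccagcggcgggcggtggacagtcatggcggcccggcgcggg
NME1: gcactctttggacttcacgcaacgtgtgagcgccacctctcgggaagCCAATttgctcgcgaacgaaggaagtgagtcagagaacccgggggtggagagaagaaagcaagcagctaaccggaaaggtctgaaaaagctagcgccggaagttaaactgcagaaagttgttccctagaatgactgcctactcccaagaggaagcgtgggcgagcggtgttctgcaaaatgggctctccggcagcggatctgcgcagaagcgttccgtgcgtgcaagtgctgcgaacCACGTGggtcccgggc
DCK: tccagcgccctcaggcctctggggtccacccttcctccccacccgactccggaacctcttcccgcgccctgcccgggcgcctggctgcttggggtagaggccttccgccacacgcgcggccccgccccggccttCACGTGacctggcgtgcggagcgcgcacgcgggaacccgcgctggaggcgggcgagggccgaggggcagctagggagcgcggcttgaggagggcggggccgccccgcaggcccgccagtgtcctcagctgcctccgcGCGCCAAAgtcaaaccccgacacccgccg
TK1 and DTYMK each held 2 CCAAT words upstream of the start, read on the opposite strand as ATTGG in TK1; the other RefSeq promoter of TK1 held no searched word. NME1 held 1 CCAAT upstream and 1 E-box just after the start, and DCK held 1 E-box upstream and 1 E2F word, printed as GCGCCAAA, after the start. SHMT1 held 2 CCAAT words and UCK2 held 1, and the promoters of NME2 held none of the words. The table matched 34 members by symbol, with 62 promoters. An E-box was present in 7 of the 34 members (8.775% of all 27305 genes in the table), an E2F word in 8 (3.992%), TTTGAA in 7 (18.169%), TGATGNAA in 2 (4.457%) and CCAAT in 18 (39.722%). Members had more annotated promoters per gene than the table as a whole, which holds 35116 promoters, so they had more chances of a match. A match is a description of the letters and not of binding.

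Of the 6 folate one-carbon enzymes 1 fell (16.7%, against 7.84% of all genes) and 0 rose (against 6.47%), with a median log2 fold change of -0.01. SHMT1, which moves a carbon from serine to tetrahydrofolate in the cytosol (chromosome 17, 18327860 to 18363563, minus strand), had 45.7, 43.8 and 43.4 CPM in siC1QBP, against 51.1, 50.5 and 49.5 CPM in siNC. The groups were separate and tight. SHMT1 fell by 0.18 on the log2 scale (SE 0.06, adjusted p = 0.0418 by edgeR), and the call was lost when any library other than siC1QBP replicate 1 was left out (adjusted p 0.0846 to 0.128).

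ALDH1L2, the mitochondrial 10-formyltetrahydrofolate dehydrogenase, was the 1 member with every siC1QBP library above every siNC library, and is singled out after its values were seen. It had 14.7, 16.0 and 16.6 CPM in siC1QBP, against 14.1, 10.9 and 13.2 CPM in siNC. Its log2 fold change of 0.32 missed the threshold (SE 0.11, adjusted p = 0.0614 by edgeR, range 0.00676 to 0.273 over the alternatives), and it passed without siC1QBP replicate 1 (adjusted p = 0.0339) or without siNC replicate 1 (adjusted p = 0.0439). Its cytosolic counterpart ALDH1L1 was at 0.23 with overlapping groups (11.3 to 13.2 CPM in siC1QBP, 9.17 to 11.6 CPM in siNC). The trifunctional MTHFD1 was at -0.04, and the mitochondrial MTHFD1L and MTHFD2L were at -0.08 and 0.01.

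**Figure D4:**
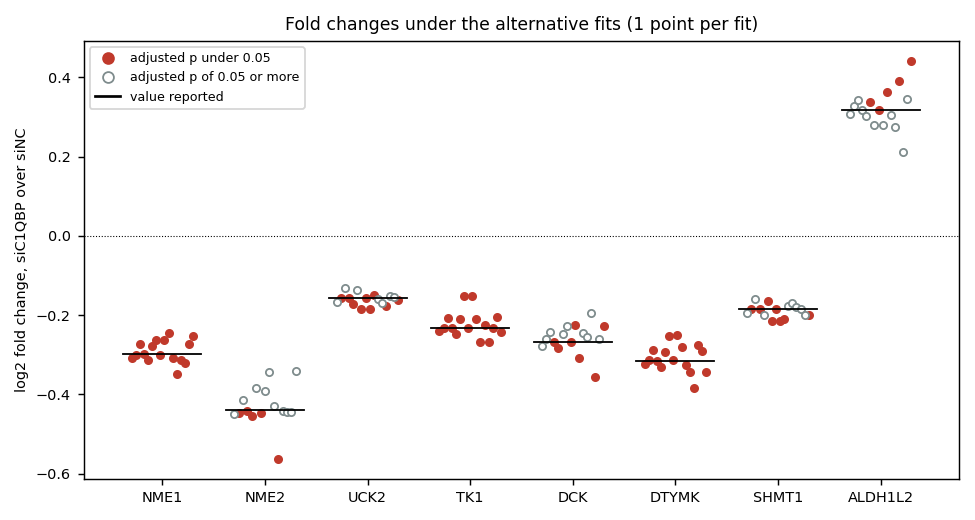
Log2 fold change (siC1QBP over siNC) under each alternative fit for the 7 called members and ALDH1L2; filled red points have an adjusted p under 0.05, open points do not, and the line is the value reported. TK1, DTYMK and NME1 are filled in all 16 fits, whereas NME2 is filled in 5 of 15 and ALDH1L2 in 5 of 16.

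None of the 3 genes of folate uptake and retention was called, although all had negative fold changes (median -0.15). With 14.3% of all genes called either way, few calls would come from 3 genes. GGH, the lysosomal hydrolase that trims folate polyglutamates, had 79.9, 92.1 and 95.8 CPM in siC1QBP, against 99.0, 98.7 and 99.99 CPM in siNC. The siC1QBP libraries were all lower, and replicate 1 was the farthest below. On the log2 scale GGH stood at -0.15 (SE 0.06, adjusted p = 0.105 by edgeR). The reduced folate carrier SLC19A1 had 32.9 to 33.9 CPM in siC1QBP and 37.1 to 38.6 CPM in siNC, without overlap (log2 fold change -0.18, edgeR adjusted p = 0.0668). Every siC1QBP library was likewise below every siNC library in 16.6% of all genes tested. FPGS, which adds the glutamates that hold folate in the cell, was at -0.13 with overlapping groups.

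In the methionine cycle 0 of 4 members was called, with a median of -0.10. At the 14.3% of all genes called either way, few calls would come from 4 genes. AHCY, which clears S-adenosylhomocysteine, had 338, 307 and 297 CPM in siC1QBP, against 322, 343 and 340 CPM in siNC. The groups overlapped through siC1QBP replicate 1, and AHCY stood at -0.09 on the log2 scale (SE 0.05, adjusted p = 0.246 by edgeR). Leaving out that library gave a call (adjusted p = 0.00722). MAT2A, which makes S-adenosylmethionine, had 194 to 210 CPM in siC1QBP and 219 to 221 CPM in siNC, and the methionine synthase reductase MTRR had 54.5 to 59.0 CPM in siC1QBP and 60.4 to 65.4 CPM in siNC. Both had groups without overlap and missed the threshold (log2 fold changes -0.12 and -0.17, edgeR adjusted p 0.0895 and 0.0601). Of all genes tested, 16.6% had every siC1QBP library below every siNC library. Methionine synthase MTR had a 95% interval of -0.13 to 0.13. MTRR was called lower without siNC replicate 1 (edgeR adjusted p = 0.0441).

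By place in the cell, 0 of the 6 tested members counted here as mitochondrial (DHODH, TK2, NME4, MTHFD1L, MTHFD2L and ALDH1L2) was called. The split was set by gene, so the rest may include genes that also have a mitochondrial form. The median log2 fold change of these 6 was -0.08. Of the rest, 7 of 30 were called lower (23.3%), with a median of -0.10. Among all genes, 7.84% were called lower and 6.47% higher, so few calls would come from 6 genes at those shares. TK2 was called lower in 4 of 16 alternative fits and ALDH1L2 higher in 5 of 16. The difference between the parts was not tested. As a sum, the 37 genes held 2877 to 2895 CPM in siC1QBP and 3054 to 3137 CPM in siNC. That is 0.289% to 0.291% of all counts in siC1QBP and 0.304% to 0.310% in siNC, without overlap. The other 4 ratios between partner genes (CTPS1 to CTPS2, RRM2 to RRM1, MTHFD1L to MTHFD2L and ALDH1L2 to ALDH1L1) overlapped between the groups, with exact permutation p of 0.4 to 0.9.

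Fold changes varied with gene length across the whole table. With the tested genes ranked by length into 5 equal bins, 11.4% of the bin of shortest genes were called lower and 2.90% higher, and in the bin of longest genes 3.19% were lower and 12.7% higher. The 7 called members had a median length of 3227 bases, against 4799 for the tested members and 4547 for all genes tested. With each library's length trend removed, 8 members were called lower, 5 of them among the 7 above. Of all genes, 1224 were then lower and 967 higher. The others were MTRR, SLC19A1 and TK2, which were also called lower with the replicate block. DCK and NME2 were not called with the length trend removed (edgeR adjusted p 0.0876 and 0.0761), and TK1 remained at -0.15 (adjusted p = 0.0194).

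Other genes of the same pathways, outside the 37, were counted from lists. Of 18 tested pyrimidine and dNTP genes 4 fell (22.2%, against 7.84% of all genes) and 1 rose (5.56%, against 6.47%), with a median log2 fold change of -0.11. DCTPP1, which hydrolyses dCTP and modified forms of it, fell by 0.34 (SE 0.06, edgeR adjusted p = 0.00211), with 38.6 ± 1.5 CPM in siC1QBP and 48.9 ± 2.7 CPM in siNC (SD, n = 3 each), but 42.1% of its exon bases lie opposite ZNF771. NME3 fell by 0.42 and the mitochondrial pyrimidine nucleotide carrier SLC25A36 by 0.18, whereas the nucleoside transporter SLC29A2 was 0.21 higher (adjusted p 0.0190, 0.0197 and 0.0325). The NME3 call was lost without siNC replicate 2 (adjusted p = 0.116) or 3 (0.0899), that of SLC25A36 without siC1QBP replicate 2 (0.0575) or siNC replicate 1 (0.0527) or 3 (0.0963), and that of SLC29A2 when any library other than siC1QBP replicate 1 or siNC replicate 2 was left out (0.103 to 0.148). Of 21 tested folate, one-carbon and methionine genes 2 fell (SLC25A32 and AHCYL1) and 1 rose (FTCD), with a median of 0.02. These shares of 9.52% and 4.76% were near those of all genes (7.84% and 6.47%). SLC25A32 averaged 0.515 CPM in siC1QBP and 1.26 CPM in siNC, and FTCD 1.08 CPM in siC1QBP and 0.444 CPM in siNC. SLC25A32 shares 69.7% of its exon bases with another annotated gene on its strand, and its call was lost when any library other than siNC replicate 1 was left out (adjusted p 0.0516 to 0.111). The FTCD call was lost in each of the 6 fits that left out 1 library (0.0505 to 0.142), and the AHCYL1 call when any library other than siC1QBP replicate 1 was left out (0.0717 to 0.118). SHMT2 and MTHFD2, the abundant mitochondrial partners of this list, were at 0.02 and 0.06 and were not called; they are named after their values were seen.

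The list of S-phase genes shares no gene with the 37 and was chosen with earlier results of these data known. It had 10 of 22 called lower (45.5%, against 7.84% of all genes) and 0 higher (against 6.47%). The median log2 fold change was -0.16, with all 22 below 0. The histone mRNA binding protein SLBP fell by 0.39, the methylation maintenance factor UHRF1 by 0.33, the replicative helicase subunit MCM2 by 0.24 and the flap endonuclease FEN1 by 0.21 (edgeR adjusted p 0.000417 to 0.00246), and these 4 were called lower in all 16 alternative fits. Their part in the lower TK1 and DTYMK was not tested.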

How the data were processed

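The authors deposited raw counts per gene for 58735 genes in 6 libraries, whole numbers with no normalization. Per the labels' protocols, total RNA was made into libraries with a strand-marking kit. The submitters' processing notes name hg38; not given in the sources used here are the aligner, the counter and the strand setting, so reads of overlapping genes may sit with either partner. Coordinates of all 58735 genes matched GENCODE release 29. The 37 members and all lists were chosen with earlier results of these data known.

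Tests used edgeR 4.0.16, quasi-likelihood (R 4.3.3; TMM, default low-count filter, treatment as the only term, Benjamini-Hochberg over 15530 genes). Log2 fold changes are siC1QBP over siNC. FPKM is CPM per kilobase of the deposited gene length. The script was checked on simulated counts. Replicates are separate samples by label only, so p-values measure a spread that may be technical. A gene without a count could hold 0.147 to 0.175 CPM (3 counts; counting error only).

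Members called, and the member with the highest FPKM in a role group with no call, are given in every library; of other lists, the called genes with the 4 smallest p are named. Alternatives were DESeq2 1.42.0, limma-voom (limma 3.58.1), other scalings and filters, length trends removed, a replicate block, each library left out, and an adjusted p under 0.01.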

Additional observations from a re-analysis of the deposited data

How the results depend on the processing

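The 7 members called lower became 3 with DESeq2, 3 with scaling by library size only, 4 among genes of at least 10 CPM and 3 at an adjusted p under 0.01 (TK1, DTYMK and NME1 in each of the 4). Genes called lower in the whole table went from 1217 to 1132, 908, 975 and 579 in these settings. The members called lower became 13 with replicate 1 of both groups left out (1912 of all genes), a setting chosen after seeing the data. They became 3 to 9 when each library was left out in turn (581 to 1468 of all genes). The 0 members called higher became 1 (ALDH1L2) at a mean of at least 10 CPM and with replicate 1 of both groups left out, and 0 to 1 when each library was left out. The 2222 genes called in all became 1057 at an adjusted p under 0.01 and 1105 to 2583 when each library was left out, the lowest being 1105 without siNC replicate 2 and 1178 when siNC replicate 3 was dropped. The causes were not tested.

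The labels do not say whether same-numbered libraries were paired. Their deviations from the group means correlated at 0.0433, 0.0330 and -0.00941, which cannot decide it with 3 libraries per group. With the replicate block, 12 members were lower and 1 higher, and the genes called in all went from 2222 to 3092 (1758 lower and 1334 higher).

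Some uncalled members with fold changes near 0 changed sign. With length trends removed, CAD was at -0.0056, DUT at 0.0016, DCTD at 0.015, MTHFD2L at -0.038 and MTR at -0.059; with the replicate block as well, CAD was at -0.0054, DCTD at 0.015, MTHFD2L at -0.043 and MTR at -0.060. With scaling by library size only, UMPS was at 0.023, CTPS2 at 0.019 and DCTD at 0.0034, and above 10 CPM UMPS was at 0.020 and CTPS2 at 0.015. MTR was at -0.0082 with DESeq2, -0.014 with genes of at least 1 count (MTHFD2L at -0.0029) and -0.00083 with the replicate block. With replicate 1 of both groups left out, DHODH was at 0.081, UMPS at 0.047, DUT at 0.015 and MTR at -0.0016. When each library was left out, DHODH ranged from -0.18 to 0.060, UMPS from -0.034 to 0.051, CTPS2 from -0.062 to 0.033, DUT from -0.074 to 0.043, MTHFD2L from -0.093 to 0.080 and MTR from -0.045 to 0.049.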
